A study of Mus musculus with 8 samples.

Results

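The 10 genes described here, Hif1a, Vegfa, Bnip3, Bnip3l, Pdk1, Egln3, P4ha1, Ndrg1, Higd1a and Adm, belong to the transcriptional response to low oxygen. They were found on the array by symbol or older alias, which gave 14 of its 25697 probes. Vegfa had 3 probes, Egln3 and Ndrg1 had 2 each and the other 7 genes had 1 each. One of the Ndrg1 probes is listed under the older alias NDRL. Another 3 probes listed as DRG1 belong to a different gene, Drg1, and were not included. The arrays measured total RNA of CD8+ T cells sorted from B16.SIY.dsRed tumors, in which mouse B16 melanoma cells express a model antigen (SIY) along with a red fluorescent reporter (dsRed). The tumors grew for 14 days in both flanks of female C57BL/6 mice, without treatment of mice or cells.

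The sort used the costimulatory receptor 4-1BB and the inhibitory receptors LAG3 and PD-1. Double-positive cells were 4-1BB+ LAG3+, LAG3+ cells were LAG3+ without 4-1BB, PD-1+ cells had PD-1 without 4-1BB and LAG3, and triple-negative cells had none of the 3. PD-1 is not stated in the labels of the double-positive and LAG3+ cells. There were 2 experiments, which each gave 1 array per population, and the tumors of 10 mice were pooled before the sort. The design text does not say whether 10 is the number per experiment. The values therefore describe pools. The p-values rest on the spread between the 2 pools of a population, combined over all 4 populations, and not on the spread between animals.

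In cells with enough oxygen, prolyl hydroxylases mark the alpha subunit of hypoxia-inducible factor (HIF) for degradation, so control of Hif1a lies largely at the level of the protein. When oxygen is scarce, the stabilised subunit joins its partner ARNT and binds short DNA elements with the core ACGTG or GCGTG. Its targets shift metabolism to glycolysis (Pdk1), remove mitochondria (Bnip3, Bnip3l), modify collagen (P4ha1), act on blood vessels (Vegfa, Adm) and feed back on HIF itself (Egln3). T cell receptor signals and growth factors can also raise HIF activity in T cells without low oxygen.

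Promoters are shown for those tested genes that had a promoter window, because they hold these cores. RefSeq (GRCm38.p6) gave windows of 300 bases, 250 before to 50 after the annotated start, for 8 of the 10 genes (10 windows), with Bnip3l and Ndrg1 not among them. ACGTG or GCGTG, searched on both strands, occurred in 8 of the 10 windows, at least 1 for each of the 8 genes. The windows without a core were a second window of Pdk1 (chr2:71874654-71874953, plus strand), which is not printed, and 1 window of Vegfa. A CACGTG site counts once on each strand. Of all 32851 windows in the table, 43.8% held either core, 19.6% held ACGTG and 32.4% held GCGTG. The windows of Pdk1 (chr2:71872974-71873273, plus strand), Egln3 (chr12:54203825-54204124, minus strand), P4ha1 (chr10:59323046-59323345, plus strand) and Adm (chr7:110627407-110627706, plus strand) are printed 5′ to 3′, with the cores in capitals. On the strand as printed, CACGT and CACGC are the same cores read from the other strand.
Pdk1: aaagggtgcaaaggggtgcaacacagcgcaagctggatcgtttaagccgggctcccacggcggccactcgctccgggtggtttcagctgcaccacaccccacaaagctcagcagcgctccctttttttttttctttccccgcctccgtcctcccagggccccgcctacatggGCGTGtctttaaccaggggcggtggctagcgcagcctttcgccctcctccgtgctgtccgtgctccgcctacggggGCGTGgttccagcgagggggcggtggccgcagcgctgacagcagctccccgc
Egln3: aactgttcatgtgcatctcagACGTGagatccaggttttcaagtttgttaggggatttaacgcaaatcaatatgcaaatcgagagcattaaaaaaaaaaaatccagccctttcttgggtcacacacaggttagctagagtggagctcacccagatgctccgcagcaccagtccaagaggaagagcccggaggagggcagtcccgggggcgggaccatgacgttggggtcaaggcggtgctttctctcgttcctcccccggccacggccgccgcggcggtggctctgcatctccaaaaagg
P4ha1: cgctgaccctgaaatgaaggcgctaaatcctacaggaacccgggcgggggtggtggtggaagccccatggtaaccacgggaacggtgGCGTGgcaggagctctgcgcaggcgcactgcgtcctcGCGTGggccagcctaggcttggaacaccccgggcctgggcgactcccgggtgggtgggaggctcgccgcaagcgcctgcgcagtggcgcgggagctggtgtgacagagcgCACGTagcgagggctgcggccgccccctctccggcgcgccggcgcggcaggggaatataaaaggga
Adm: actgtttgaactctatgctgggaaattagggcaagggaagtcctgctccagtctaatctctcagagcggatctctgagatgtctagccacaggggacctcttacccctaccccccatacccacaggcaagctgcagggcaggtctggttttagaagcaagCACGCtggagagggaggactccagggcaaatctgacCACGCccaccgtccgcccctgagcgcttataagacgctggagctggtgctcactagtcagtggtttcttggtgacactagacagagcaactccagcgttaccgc
Counted from the annotated start as 0, the cores began at -78 and -2 in Pdk1, at -229 in Egln3, at -163, -126 and -16 in P4ha1, and at -90 and -54 in Adm. A match describes the letters of the window and says nothing of binding.

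The cells carried the transcripts of CD8+ T cells. Of 9 CD8 T cell genes (Cd3d, Cd3e, Cd3g, Cd8a, Cd8b1, Cd2, Cd5, Lck and Cd247), 7 or 8 were detected on each array, and the Cd8a probe was detected on none. In experiments 1 and 2, 8671 and 7339 probes were detected (detection p under 0.05) in double-positive cells, 8493 and 7282 in LAG3+ cells, 6404 and 5522 in PD-1+ cells, and 9044 and 6933 in triple-negative cells. Within each experiment the lowest number was that of PD-1+ cells, whose arrays also differed most between experiments, with a standard deviation of log2 differences of 1.24 across tested probes, against 0.66 for double-positive, 0.69 for LAG3+ and 0.81 for triple-negative cells. Melanoma genes were present at levels that varied by array. Their summed level was 455 and 2567 in double-positive, 676 and 2451 in LAG3+, 980 and 4680 in PD-1+ and 389 and 369 in triple-negative cells in experiments 1 and 2. Each sum adds all listed probes, detected or not, and 3 to 7 of the 15 melanoma probes were detected per array. Undetected probes thus add their background level to every sum, and ratios of sums are not ratios of transcript. Of 9 melanoma genes, Tyr, Mitf, Mc1r and S100b were detected on no array and Pmel, Tyrp1, Dct, Mlana and Gpnmb on some. In such bulk samples fewer cells of a type and less RNA per cell cannot be told apart.

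Most of the 10 genes lay near or below the limit of detection. Of the 14 probes, 7 were detected on at least 2 of the 8 arrays and were tested: those of Bnip3l, Pdk1, P4ha1 and Adm, 1 of Egln3 and both of Ndrg1. The other 7, all probes of Hif1a, Vegfa, Bnip3 and Higd1a and the other of Egln3, were detected on 0 or 1 array. Bnip3l was brightest, at percentile 95.6 of mean level among all probes on the array, followed by Ndrg1 (87.9 and 89.4) and the detected Egln3 probe (84.3). Levels below are normalised intensities on the log2 scale. They are background-corrected, carry an added offset of 16 that compresses the differences of dim probes, and bottom out near 4.1. They rank a probe on its own array and do not compare transcript amounts between genes.

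**Figure D1:**
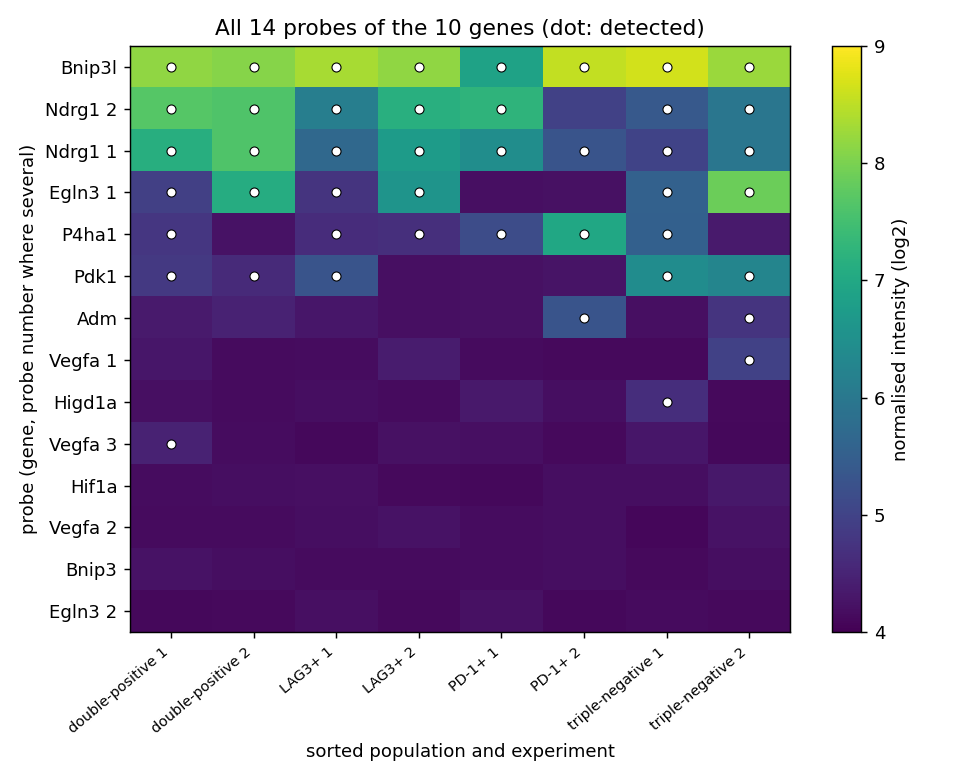
Normalised intensity (log2, colour) of all 14 probes (rows, brightest at the top) on the 8 arrays (columns, by population and experiment); a white dot marks detection p under 0.05. Only Bnip3l and one Ndrg1 probe were detected on all 8 arrays, and the rows of Hif1a, Bnip3 and the second Egln3 probe hold no dot.

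No probe of the 10 genes passed an adjusted p of 0.05 in any comparison. Of all 9864 tested probes, 0.852% passed in double-positive against triple-negative cells, 0.132% in LAG3+ and 0.284% in PD-1+ against triple-negative cells. In double-positive against LAG3+ cells 0% passed (0 probes, with 256 or 2.6% at an unadjusted p under 0.05), against PD-1+ cells 0.142%, and in LAG3+ against PD-1+ cells 0.0811%. For both LAG3-positive sorts together against triple-negative cells the share was 1.04%, and for any difference among the 4 populations (moderated F test) 0.365%. These shares, applied to 7 probes, come to less than 1 probe in each comparison.

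At an unadjusted limma p under 0.05, 3 of the 7 probes differed in double-positive against triple-negative cells (12.9% of all probes), the Pdk1 probe and both Ndrg1 probes. In LAG3+ against triple-negative cells 1 of 7 did (Pdk1; 9.04% of all probes), and in PD-1+ against triple-negative cells 2 of 7 did (Pdk1 and Egln3; 14.3%). In double-positive against PD-1+ cells 1 of 7 did (Ndrg1; 14.3%), and 0 did in double-positive against LAG3+ cells (2.6%) or in LAG3+ against PD-1+ cells (11.1%). For any difference among the 4 populations by the F test the smallest adjusted p was that of Pdk1, 0.146. The median log2 change of the 7 probes was -0.32 in double-positive against triple-negative cells (0.0028 for all tested probes), -0.23 in LAG3+ (-0.0067) and 0.29 in PD-1+ cells (-0.044). Single arrays turned the sign of each of these medians. Without triple-negative array 2 it was 0.22 in double-positive and 0.05 in LAG3+ cells, and without triple-negative array 1 it was 0.01 in LAG3+ cells. In PD-1+ cells it was -0.18 without PD-1+ array 1, -0.24 without PD-1+ array 2 and -0.07 without triple-negative array 1, and also -0.17 over the 6 probes detected on at least 4 arrays and -0.22 with 1 probe per gene. Both directions stood behind these medians: Ndrg1 was higher and Pdk1 lower in each of the double-positive and LAG3+ means than in the triple-negative mean. Values after ± are standard errors from the pooled fit unless called SD, with n = 2 arrays per population.

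**Figure D2:**
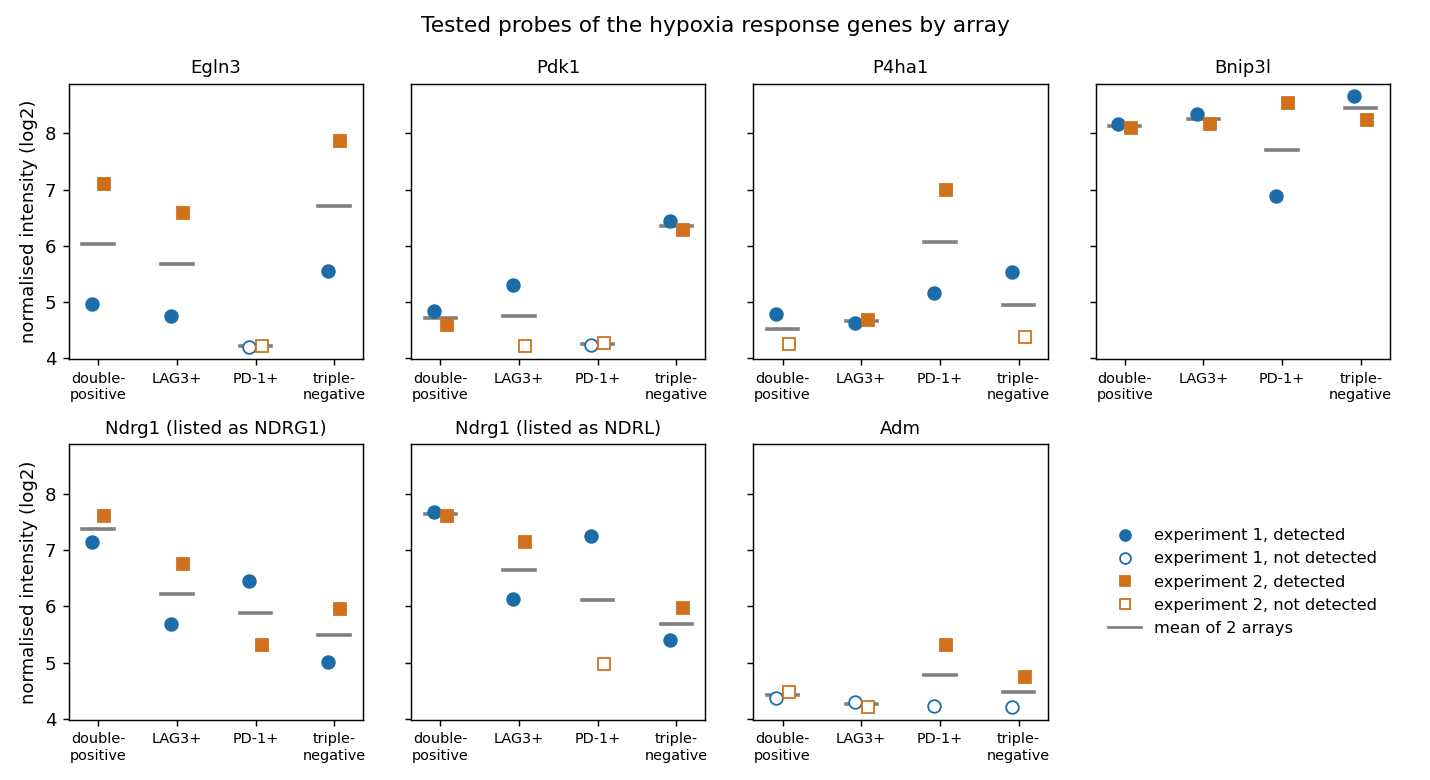
Normalised intensity (log2, vertical axis) of the 7 tested probes by population; circles are experiment 1, squares experiment 2, open symbols not detected, and bars the mean of the 2 arrays. Pdk1 lies at 6.28 and 6.43 on the triple-negative arrays and at 5.29 or below on the other 6, and both double-positive arrays lie above the other 6 for each Ndrg1 probe.

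Hif1a encodes the regulated subunit of HIF-1. Its probe was detected on none of the 8 arrays, with raw signals of 72.6 to 90.9 where the median of undetected probes was 72.7 to 89.9. Its transcript was thus not detectable with this probe, which does not show that it is absent, and the arrays hold no value for the protein.

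Egln3, the prolyl hydroxylase PHD3, marks HIF alpha subunits for degradation and is itself a HIF target. Its detected probe read 4.95 and 7.10 in double-positive cells in experiments 1 and 2, 4.75 and 6.58 in LAG3+ cells, 4.20 and 4.22 (not detected on either) in PD-1+ cells, and 5.56 and 7.87 in triple-negative cells. Every population in which it was detected read higher in experiment 2, so the populations overlap when the experiments are pooled. Within each experiment the order of levels was triple-negative, double-positive, LAG3+, PD-1+.

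In PD-1+ against triple-negative cells Egln3 differed by -2.50 ± 1.02 (adjusted p = 0.333). Since a probe not detected on either array has only a bound there, the fold is given as the brighter mean over the lowest detected level of the PD-1+ arrays, which was at least 3.62-fold higher in triple-negative cells. By the same bound Egln3 was at least 2.25-fold higher in double-positive than in PD-1+ cells (adjusted p = 0.472) and at least 1.75-fold higher in LAG3+ than in PD-1+ cells (adjusted p = 0.635). These bounds changed with single arrays. Without triple-negative array 2 the first was 1.62-fold, without double-positive array 2 the second was 1.07-fold, and without LAG3+ array 2 the third was lost, while without array 1 of the same populations they were 8.08-fold, 4.74-fold and 3.31-fold. With each array scaled to the median of its detected probes, the log2 differences were -1.17 in PD-1+ against triple-negative cells, 0.38 in double-positive against PD-1+ cells and 0.00099 in LAG3+ against PD-1+ cells. The difference between double-positive and triple-negative cells, -0.69 ± 1.02, was smaller than its standard error. It was -0.60 in experiment 1 and -0.77 in experiment 2. Melanoma genes also summed higher in experiment 2 in the double-positive, LAG3+ and PD-1+ cells, and summed to 369 on triple-negative array 2, which had the highest Egln3 level. Their part in the Egln3 values was not tested. The second Egln3 probe was detected on none of the 8 arrays (raw signals 69.8 to 88.5), so no second measurement of this gene was available.

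Pdk1 encodes pyruvate dehydrogenase kinase 1, which keeps pyruvate out of the mitochondrial citric acid cycle. Its probe read 4.83 and 4.59 in double-positive cells, 5.29 and 4.21 (the second not detected) in LAG3+ cells, 4.23 and 4.26 (neither detected) in PD-1+ cells, and 6.43 and 6.28 in triple-negative cells. After normalisation both triple-negative arrays stood above the other 6, a pattern shown by 7.03% of all tested probes. In raw signal LAG3+ array 1 (122.9) lay above triple-negative array 2 (113.5). Above the median of undetected probes these arrays stood at 37.3 and 31. Within each experiment the raw signal was highest in triple-negative cells (253.3 and 113.5). Among the other 3 populations the arrays overlapped.

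Double-positive minus triple-negative cells gave -1.64 ± 0.40 for Pdk1 (adjusted p = 0.134), with -1.60 in experiment 1 and -1.69 in experiment 2. LAG3+ cells gave -1.60 ± 0.40 (adjusted p = 0.246; experiments -1.14 and -2.06), and both LAG3-positive sorts together -1.62 ± 0.35 (adjusted p = 0.0925). In PD-1+ cells the difference was -2.11 ± 0.40 (adjusted p = 0.0820). As a bound in the main setting, Pdk1 was at least 2.82-fold higher in triple-negative than in PD-1+ cells. Over the 17 alternatives run, this log2 difference ran from -2.21 to -0.65, so the bound holds for the main setting only. Double-positive against LAG3+ cells differed by -0.04 ± 0.40, with a 95% interval of -0.997 to 0.911. The probe was higher in triple-negative cells in both experiments in each of these comparisons, but no adjusted p passed 0.05.

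Other measured features changed between the same populations. Genes of the tissue dissociation response (15 on the array, 12 to 14 detected per array, among them Fos, Jun and Egr1) summed to 3498 and 5757 in double-positive, 5175 and 6517 in LAG3+, 7019 and 10128 in PD-1+ and 12486 and 13542 in triple-negative cells. Cell cycle genes (18 on the array, 6 to 14 detected per array) summed to 5992 and 5075, 5926 and 5055, 4226 and 3149, and 1670 and 1501 in the same order. Their part in the Pdk1 and Ndrg1 values was not tested.

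P4ha1 encodes the catalytic alpha subunit of collagen prolyl 4-hydroxylase. Its probe read 4.79 and 4.25 (the second not detected) in double-positive cells, 4.63 and 4.67 in LAG3+ cells, 5.16 and 6.98 in PD-1+ cells, and 5.53 and 4.37 (the second not detected) in triple-negative cells. The highest level stood on PD-1+ array 2, and the other 7 arrays reached at most 5.53. The PD-1+ mean exceeded the triple-negative mean by 1.12 ± 0.66 (adjusted p = 0.507), but the experiments disagreed, with -0.37 in experiment 1 and 2.61 in experiment 2. Double-positive minus PD-1+ cells gave -1.55 ± 0.66 (adjusted p = 0.353; experiments -0.37 and -2.74) and LAG3+ minus PD-1+ cells -1.42 ± 0.66 (adjusted p = 0.489; experiments -0.53 and -2.31).

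PD-1+ array 2 was also the array with the lowest number of detected probes and the highest sums of melanoma genes (4680) and of macrophage and monocyte genes. The macrophage and monocyte sum was 1628, against 590 on PD-1+ array 1 and 348 to 500 on the other 6 arrays, with 6 of 12 genes detected on each PD-1+ array and 2 to 5 elsewhere. C1qc and Itgam were detected on no array. Of the 18 macrophage and monocyte probes, 2 to 7 were detected per array, and the undetected ones add their background level to these sums. Dendritic cell genes (9 on the array, 3 to 5 detected per array) also summed highest there, to 2347, with 1507 on PD-1+ array 1, 605 and 503 on the double-positive arrays, 804 and 735 on the LAG3+ arrays, and 1567 and 1232 on the triple-negative arrays. Clec9a, Flt3, Itgax and Xcr1 of this list were detected on no array. Ccr7 of the same list read highest in triple-negative cells (8.53 and 9.47). The sum is thus not a count of dendritic cells. The part of these transcripts in the values of P4ha1 and the other 9 genes was not tested. The raw P4ha1 signal of that array was 90.9, below the 163.4 of triple-negative array 1, while the median of undetected probes was 72.7 on the PD-1+ array and 89.9 on the triple-negative array. Above these medians the P4ha1 signal was 18.2 on PD-1+ array 2 and 73.5 on triple-negative array 1. Subtracting the median thus kept the raw order, and the order of these arrays turned with normalisation between arrays.

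Bnip3 and Bnip3l (Nix) are mitochondrial outer membrane proteins that recruit the autophagy machinery, and Higd1a is a small mitochondrial protein linked to the respiratory chain. Bnip3l was the one clearly expressed of the 3, with 8.17 and 8.10 in double-positive, 8.35 and 8.16 in LAG3+, 6.88 and 8.54 in PD-1+ and 8.66 and 8.24 in triple-negative cells. Apart from PD-1+ array 1, the levels lay between 8.10 and 8.66. In raw signal the PD-1+ arrays read 141.3 and 145.6, both below the 233.9 to 910 of the other arrays. Above the median of undetected probes the PD-1+ arrays stood at 59.1 and 72.9. The gap between the PD-1+ arrays thus opened with normalisation between arrays. Against triple-negative cells Bnip3l differed by -0.32 ± 0.54 in double-positive cells (95% interval -1.59 to 0.95), by -0.20 ± 0.54 in LAG3+ cells and by -0.74 ± 0.54 in PD-1+ cells, with adjusted p of 0.950, 0.999 and 0.601. In PD-1+ cells the experiments gave -1.78 and 0.30. Bnip3 was detected on no array (raw signals 72.6 to 88.2). Higd1a was detected only on triple-negative array 1, at a raw signal of 110.9 and a normalised level of 4.65.

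Ndrg1, N-myc downstream regulated gene 1, is a stress protein raised by low oxygen in many cells, and in mouse T cells it has been described as a factor of clonal anergy. The probe listed as NDRG1 read 7.14 and 7.62 in double-positive cells, 5.68 and 6.75 in LAG3+ cells, 6.45 and 5.31 in PD-1+ cells, and 5.01 and 5.95 in triple-negative cells. The probe listed as NDRL read 7.69 and 7.62 in double-positive cells, 6.14 and 7.14 in LAG3+ cells, 7.26 and 4.96 (the second not detected) in PD-1+ cells, and 5.40 and 5.97 in triple-negative cells. For each probe both double-positive arrays stood above the other 6, as they did for 5.19% of all tested probes, while the other 3 populations overlapped or lay close together.

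The means of both Ndrg1 probes ran in the order double-positive, LAG3+, PD-1+, triple-negative, with 7.38, 6.21, 5.88 and 5.48 for NDRG1 and 7.65, 6.64, 6.11 and 5.68 for NDRL. No difference between neighbours in this order passed the test. Double-positive minus triple-negative cells gave 1.90 ± 0.57 (adjusted p = 0.218; experiments 2.13 and 1.66) for NDRG1 and 1.97 ± 0.74 (adjusted p = 0.326; experiments 2.29 and 1.65) for NDRL. The 2 probes are not independent measurements, since they read the same RNA, and their levels correlated at r = 0.94 over the 8 arrays.

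Against LAG3+ cells the double-positive mean of Ndrg1 was higher by 1.16 ± 0.57 and 1.01 ± 0.74 (adjusted p = 1.00 for each), and against PD-1+ cells by 1.50 ± 0.57 (adjusted p = 0.307) and 1.54 ± 0.74 (adjusted p = 0.408). The gap to PD-1+ cells was wider in experiment 2 (2.31 and 2.65) than in experiment 1 (0.69 and 0.43). LAG3+ minus triple-negative cells gave 0.73 ± 0.57 and 0.96 ± 0.74 (adjusted p = 0.880 and 0.877). In PD-1+ against triple-negative cells the experiments went opposite ways, with 1.44 and -0.65 for NDRG1 and 1.86 and -1.01 for NDRL.

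Ndrg1 was the gene of the 10 whose call depended on which arrays were fitted. Without PD-1+ array 1, the NDRL probe rose in double-positive against PD-1+ cells, by 2.69 (adjusted p = 0.0443; 0.0443 to 0.778 over all settings), in a fit where 4.43% of all tested probes passed. With the experiment as a block and both PD-1+ arrays left out, a setting chosen after seeing the data, the NDRG1 probe rose in double-positive against triple-negative cells, by 1.90 ± 0.28 (adjusted p = 0.0404; 0.0404 to 0.768 over all settings), in a fit where 3.14% of all tested probes passed. In the first of these fits the NDRL probe was not detected on the lone PD-1+ array, which was assumed to vary like the other groups. The part of melanoma RNA in the Ndrg1 values was not tested.

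**Figure D3:**
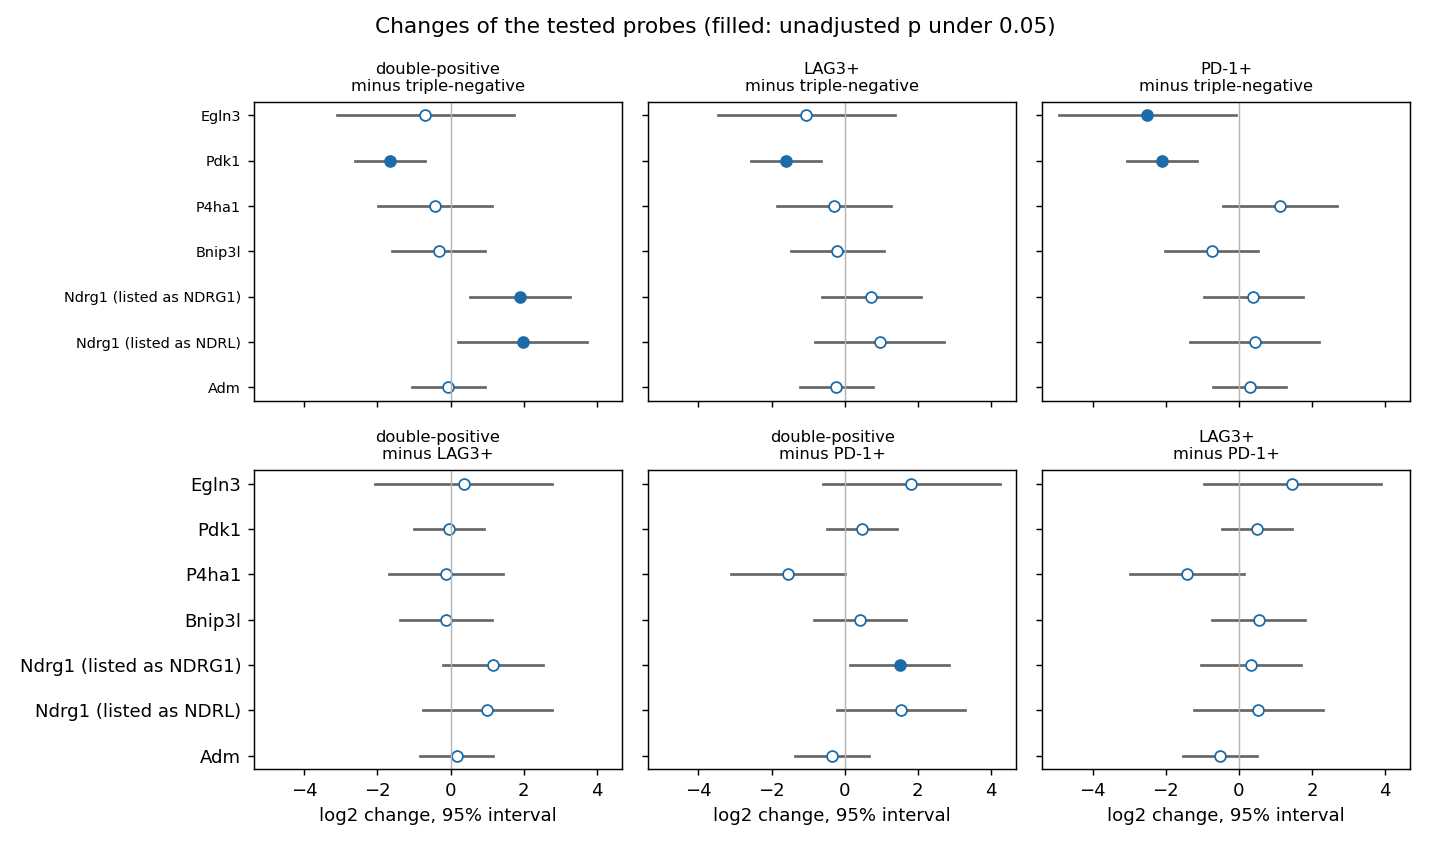
Log2 change (horizontal axis) of the 7 tested probes in the 6 pairwise comparisons, as point and 95% interval from the limma fit over all 8 arrays; filled points have an unadjusted p under 0.05. In double-positive minus triple-negative cells both Ndrg1 probes lie right of 0 at 1.90 and 1.97 and Pdk1 left of 0 at -1.64, and no point passed an adjusted p of 0.05.

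Vegfa encodes the main growth factor of blood vessels, and Adm encodes adrenomedullin, a vasodilator peptide. Of the 3 Vegfa probes, 1 was detected on triple-negative array 2 only (4.96), 1 on double-positive array 1 only (4.49) and 1 on no array, so they gave no comparison. Adm was detected on 2 arrays, PD-1+ array 2 (5.31) and triple-negative array 2 (4.75), which just met the limit for testing, as Higd1a and both of those Vegfa probes, with 1 array, just missed it. The 6 other Adm levels were 4.36 and 4.47 in double-positive, 4.29 and 4.21 in LAG3+, 4.23 in PD-1+ and 4.20 in triple-negative cells. Adm differed by -0.06 ± 0.42 in double-positive and by 0.29 ± 0.42 in PD-1+ against triple-negative cells (adjusted p = 0.993 and 0.812), and no value of it could be told from the limit of detection in double-positive and LAG3+ cells.

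Other genes of the pathway were described from lists that were drawn up with earlier results of these data known. The oxygen-sensing genes and HIF regulators gave 6 tested probes of 6 genes out of 12, and 0 of them passed the test in any of the 6 pairwise comparisons. In double-positive against triple-negative cells 3 of the 6 were higher (50.3% of all tested probes), with a median of -0.06. In both LAG3-positive sorts together against triple-negative cells the extremes were Siah1a (-0.92 ± 0.25) and Siah2 (-0.62 ± 0.52), ubiquitin ligases that act on the prolyl hydroxylases, and Epas1 (0.45 ± 0.24), which encodes HIF-2 alpha, and Os9 (0.49 ± 0.30). Their adjusted p lay between 0.172 and 0.771.

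Of the 5 pathway lists, the glycolytic HIF targets had the largest median in double-positive against triple-negative cells. All 14 tested probes, of 12 genes, were higher (50.3% of all tested probes), with a median of 1.62 against 0.0028 for all tested probes. Of the 14 probes, 2 passed the test (0.852% of all tested probes). Both belong to Tpi1, triosephosphate isomerase, which rose by 3.25 ± 0.31 and 3.28 ± 0.33 (adjusted p = 0.0142 and 0.0145). One Tpi1 probe read 12.18 and 12.48 in double-positive, 11.52 and 11.34 in LAG3+, 10.89 and 10.72 in PD-1+ and 9.27 and 8.89 in triple-negative cells, with no overlap between any of the populations. The looser pattern of both double-positive arrays above both triple-negative arrays was shown by 22.7% of all tested probes. In LAG3+ against triple-negative cells all 14 were higher too (median 1.19), against 49.3% of all tested probes, and 0 passed (0.132% of all tested probes). In PD-1+ cells 12 of 14 were higher (median 0.87), against 46.8% of all tested probes, and 0 passed (0.284% of all tested probes). At the low end, Slc2a1, the glucose transporter GLUT1, differed by 0.34 ± 0.33 and Pfkp, a phosphofructokinase, by 0.72 ± 0.31 in both LAG3-positive sorts together. With double-positive or triple-negative cells down to 1 array, all 14 stayed higher. Those fits kept no call for any tested probe of the array, so the Tpi1 calls cannot be judged from them. The sums of cell cycle, dissociation and melanoma genes given above moved between the same populations. All 7 tested melanoma probes were higher in double-positive than in triple-negative cells (50.3% of all tested probes). Their median was 1.45, and 0 of them passed the test. The part of these lists here was not tested.

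Of the other HIF targets, 36 probes of 29 genes were tested. In double-positive against triple-negative cells 20 were higher (50.3% of all tested probes), with a median of 0.16. By the test 1 rose and 0 fell (0.852% of all tested probes passed). The one that rose was Anxa2, annexin A2, a calcium-dependent membrane-binding protein, by 2.32 ± 0.27 (adjusted p = 0.0183). It read 12.83 and 12.71 in double-positive, 12.35 and 12.28 in LAG3+, 12.13 and 12.18 in PD-1+ and 10.41 and 10.50 in triple-negative cells. Its call was lost when each array was scaled to the median of the detected probes, where 1.4% of all tested probes passed. The call was also lost when any 1 array of the double-positive, LAG3+ or triple-negative cells was left out. Those fits kept few or no calls among all tested probes, so that loss is not particular to Anxa2. In both LAG3-positive sorts together the extremes were the lowest of 3 probes of Kdm3a, a histone demethylase (-1.51 ± 0.51), Wsb1 (-1.40 ± 0.34) and the 2 probes of Tfrc, the transferrin receptor (2.12 ± 0.58 and 2.50 ± 0.63), with adjusted p of 0.128 to 0.259.

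Mitophagy genes and mitochondrial partners gave 15 tested probes of 12 genes. In double-positive against triple-negative cells 10 of the 15 were higher (50.3% of all tested probes), with a median of 0.27 and 0 calls. Their extremes in both LAG3-positive sorts together were Pink1 (-1.10 ± 0.50) and Sqstm1 (-0.80 ± 0.46), and Gabarapl1 (0.65 ± 0.41) and Bcl2l13 (0.90 ± 0.58). Receptors and relatives of the 10 genes gave 8 tested probes of 7 genes, with a median of 0.07 and 0 calls. Among them Nrp1, a coreceptor of VEGF, differed by 3.83 ± 0.94 and 3.95 ± 1.17 (adjusted p = 0.129 and 0.199). One Nrp1 probe read 8.93 and 8.23 in double-positive, 9.27 and 8.43 in LAG3+, 8.84 and 5.12 in PD-1+ and 4.66 and 5.10 in triple-negative cells. The double-positive and LAG3+ arrays thus all lay above the triple-negative arrays, as they did for 13.2% of all tested probes, and the PD-1+ arrays split. At the other end stood Ramp1, a receptor activity modifying protein (-1.97 ± 0.53; adjusted p = 0.165), and Ndrg3, a relative of Ndrg1 (-0.63 ± 0.44; adjusted p = 0.672).

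**Figure D4:**
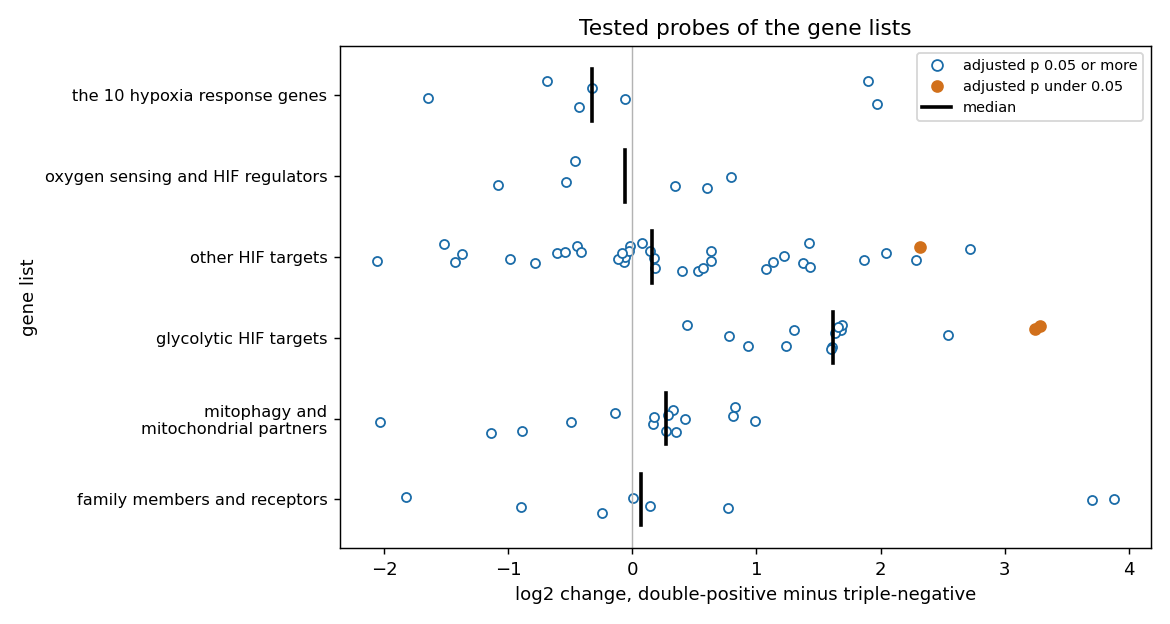
Log2 change in double-positive minus triple-negative cells (horizontal axis) of each tested probe of the 10 genes and of the 5 pathway lists (rows); filled points have an adjusted p under 0.05 and black bars are medians. The glycolytic list lies wholly right of 0, with both Tpi1 probes filled, while the 10 hypoxia response genes lie on both sides, from -1.64 to 1.97.

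The 7 tested probes did not share one profile over the 8 arrays. Correlations between probes of different genes ran from -0.67 (P4ha1 and the NDRL probe of Ndrg1) to 0.62 (P4ha1 and Adm). For the 2 probes detected on all 8 arrays, the most similar tested probes of other genes were named. Bnip3l was most like Syvn1 (r = 0.97), Abhd16a (0.97) and Apobr (0.97), and the NDRG1 probe of Ndrg1 was most like Tmem14c (0.96), Nme1 (0.95) and Rpa3 (0.94). These are the highest values among 9864 probes over 8 arrays that share experiments and normalisation, and are given as a description.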

How the data were processed

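Cy3-labelled total RNA of sorted CD8+ T cells was measured on 8 one-colour Illumina mouse arrays, 2 per population, per the labels. The authors deposited unnormalized intensities, per the file headers, and beside each a detection p-value. The authors' normalized intensities served as an alternative. Their making, the scanner software and the genome build are not stated in the sources used here. Probes were named through the platform table, RefSeq gene names (GRCm38.p6) and accessions, with older aliases of the 10 genes.

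The deposited intensities were corrected and quantile-normalized by neqc in limma 3.58.1 (R 4.3.3; offset 16), which inferred negative controls from the detection p-values, and were then put on the log2 scale. Testing was limited to the 9864 probes detected (p under 0.05) on 2 or more of the 8 arrays, and left out 15833. Each probe was a feature. A single limma fit (lmFit, eBayes) gave each population its own mean, without a block, with 4 residual and 2.91 prior degrees of freedom. Tests were two-sided, with Benjamini-Hochberg adjustment over all tested probes within a comparison and a threshold of 0.05. With 2 arrays a side, an exact permutation test cannot give a p below 0.333. Precision is limited by the number of arrays: log2 changes had a median standard error of 0.436. The fit was also run on simulated data with independent noise of equal spread in all populations. The real arrays differed in spread between populations, so that run checks the code only.

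Pairing comes from the experiment number in the titles. Deviations of same-numbered arrays from their population means correlated at 0.0949 (double-positive and PD-1+) to 0.228 between populations. The replicate block was an alternative, as were other background corrections, normalizations, offsets and filters, 1 probe per gene, array weights, a fit without the PD-1+ arrays, and leaving out each array.

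The members and gene lists were chosen with earlier results of these data known. All 10 members were named and, of each pathway list, genes past the threshold in a pairwise comparison and the 2 highest and 2 lowest changes in both LAG3-positive sorts against triple-negative cells. Sums over marker lists add normalized intensities of all listed probes, detected or not, each with the offset of 16. For a probe undetected on both arrays of a population, the bound took per array the lowest level among detected probes, or the probe's own level if higher.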

Additional observations from a re-analysis of the deposited data

How the results depend on the processing

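In the main setting and the 19 alternatives, where they could be run, the number of probes of the 10 genes past the threshold stayed at 0 in every comparison except 2 cases. Leaving out single arrays gave 0 to 1 in double-positive against PD-1+ cells, with the 1 without PD-1+ replicate 1, and 0 in the other comparisons. The replicate block in a fit without both PD-1+ arrays, chosen after seeing the data, gave 1 in double-positive against triple-negative cells. Both were Ndrg1 probes, and the causes were not tested. The replicate block over all 8 arrays gave 0 in all 8 tests. It left Pdk1 in double-positive against triple-negative cells at -1.64 ± 0.36 (adjusted p = 0.112) and changed no other call of the 10 genes.

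Of the single values under alternatives, 836 kept their direction and side of the threshold, 37 that were never called changed sign, 2 passed the threshold and 0 called values reversed. Pdk1 in double-positive against triple-negative cells ran from -1.76 to -0.54 (adjusted p 0.0725 to 0.593) and was negative in all 19 alternatives. Ndrg1 ran from 0.86 to 2.37 and from 0.97 to 2.25 and was positive in all 18 alternatives run for the NDRG1 probe and all 19 for the NDRL probe. Egln3 (-1.84 to 0.47), P4ha1 (-1.01 to 0.15) and Adm (-0.33 to 0.22) changed sign in at least 1 setting of that comparison.

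Scaling each array to the median of the detected probes moved the median of all tested probes to 0.76 in PD-1+ against triple-negative cells, to -0.87 in double-positive against PD-1+, to -0.70 in LAG3+ against PD-1+ and to -0.18 in double-positive against LAG3+ cells. Pdk1 in PD-1+ against triple-negative cells was then -0.84, still below that median, and -0.92 in double-positive against PD-1+ cells, where it had been 0.46. The calls over all probes in PD-1+ against triple-negative cells were 27 higher and 4 lower with this scaling (14 and 14 without), and 3 and 20 in double-positive against PD-1+ cells (6 and 8 without).

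Counts over all probes depended strongly on the arrays fitted. In double-positive against triple-negative cells 84 probes passed, 0 to 240 with 1 array left out and 25 to 310 under other settings. The same ranges were 13, 0 to 52 and 0 to 57 in LAG3+ against triple-negative cells, 28, 0 to 337 and 0 to 48 in PD-1+ against triple-negative cells, 14, 0 to 437 and 1 to 23 in double-positive against PD-1+ cells, and 8, 0 to 199 and 0 to 9 in LAG3+ against PD-1+ cells. They were 103, 0 to 285 and 32 to 382 for both LAG3-positive sorts against triple-negative cells, and 36, 0 to 218 and 2 to 123 for any difference. Signal over background limits what the 7 untested probes can show.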
